A study of Homo sapiens with 30 samples.

Results

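The genes described here are 42 genes of DNA replication and of the step from G1 into S phase. They were taken by gene symbol from a table of expected read counts for 60675 Ensembl identifiers, and each of the 42 symbols matched 1 identifier. By role they fall into 7 groups, which are 10 genes of origin licensing, 6 of helicase activation, 6 of the polymerases and primase, 7 of the sliding clamp and the lagging strand, 4 of nucleotide synthesis, 5 of the E2F factors and cyclin E, and 4 of chromatin assembly and the replication checkpoint. The RNA-seq libraries came from A549, an established human lung carcinoma line with epithelial features, whose cells had been exposed for 24 h to ethanol extracts of traditional multi-herb formulas, 4 in all. Per the labels each extract was used at 500, 100 and 20 µg/mL. The series text says that some extracts were used at an inhibitory concentration (IC20) and dilutions of it. Each dose has 3 libraries for Soshiho-tang and for Yijin-tang, 2 for Okbyeongpung-san and 1 for Soyo-san. The vehicle group had 3 libraries of cells kept with 0.1% dimethyl sulfoxide (DMSO) for 24 h per the labels, while the series text names 2% DMSO. For the extract-treated libraries the labels give no percentage of DMSO. Whether the replicates came from separate cultures is not stated in the labels, and every p-value therefore reflects spread between libraries that may be technical.

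Chromosomal DNA is copied once in each cell cycle. In G1 the origin recognition complex, CDC6 and CDT1 load the MCM helicase onto origins, and in S phase MCM10, CDC45 and the GINS complex turn that helicase on. Polymerases, the PCNA clamp and its loader then copy the strands, supplied with deoxynucleotides by enzymes such as ribonucleotide reductase. Many of these genes are transcribed in late G1 under E2F factors, which are released from the retinoblastoma protein when cyclin-dependent kinases, among them the cyclin E kinase, phosphorylate it.

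All 42 genes were among the 17459 genes with enough counts to be tested. The 30 libraries held 19833106 to 38008449 counts, and every treated library, with at least 24560758, was deeper than the 3 vehicle libraries, with at most 22327632. Levels are given in CPM, the gene's share of a library's counts on the scale of parts per 1e6, with library totals adjusted by the trimmed mean of M-values. The 13 mitochondrially encoded messenger RNAs made up 6.22% to 9.89% of counts in treated libraries and 10.5% to 10.9% in vehicle libraries. Vehicle therefore differed from all extracts in depth and in mitochondrial RNA, and for that reason the high dose of an extract was also set against its own low dose, 500 against 20 µg/mL. Replicates 2 and 3 of Okbyeongpung-san at 500 µg/mL differed more from each other than any other replicates, and the titles put every replicate 3 of that extract in batch D and every replicate 2 in batch E. All libraries of vehicle, Soshiho-tang and Yijin-tang were titled batch E and all of Soyo-san batch D. Comparisons of Okbyeongpung-san with vehicle or with those 2 extracts therefore cross the titled batches, and no vehicle library was in batch D. What the batch letters mark is not stated. Of the markers of an epithelial line, 7 of 7 averaged at least 1 CPM. The same held for 1 of 5 immune genes (CD68), 1 of 5 fibroblast genes (COL1A1) and 0 of 4 endothelial genes, and CD3E was at 0 in all libraries.

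At 500 µg/mL of Soshiho-tang most of the replication genes were lower by a modest amount. The other 8 extract doses that were tested had 0 to 10 lower genes against vehicle, where 3.96% to 7.76% of all tested genes fell. Those with the most were Yijin-tang (23.8% of the 42) and Okbyeongpung-san (16.7%) at 500 µg/mL, where 7.56% and 7.76% of all tested genes fell. The 42 genes together held 3096 ± 98.1 CPM at 500 µg/mL of Soshiho-tang, against 3788 ± 92.8 CPM at 20 µg/mL and 3826 ± 34.9 CPM in vehicle (SD, n = 3 each). Against 20 µg/mL, 29 of the 42 genes fell and 0 rose, where 10.2% of all tested genes fell and 10.3% rose (0 were higher at an unadjusted p below 0.05 and 0 with DESeq2). The calls are those of edgeR's quasi-likelihood test at an adjusted p below 0.05, with the Benjamini-Hochberg adjustment made over the whole table. Against vehicle, 33 of the 42 fell and 2 rose, where 16.0% of all tested genes fell and 17.2% rose. The median log2 fold change of the 42 genes was −0.27 in both comparisons, against 0.00 and 0.01 over all tested genes. All 3 libraries at 500 µg/mL lay below all 3 at 20 µg/mL for 32 of the 42 genes and above them for 0, where 19.8% of all tested genes lay wholly below and 19.1% wholly above. They lay below all 3 vehicle libraries for 33 genes and above them for 2, where 25.0% and 25.7% of all tested genes did. There were 27 genes that fell against both, where 7.61% of all tested genes did, and these comparisons share the 500 µg/mL libraries. For 25 genes the 3 libraries of Soshiho-tang at 500 µg/mL were the lowest of all 30, as they were for 4.87% of all tested genes. With mitochondrial genes left out of the table the counts of lower genes were again 29 against 20 µg/mL and 33 against vehicle. In whole-cell RNA of this kind, fewer cells in S phase and less RNA per cell cannot be told apart.

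**Figure D1:**
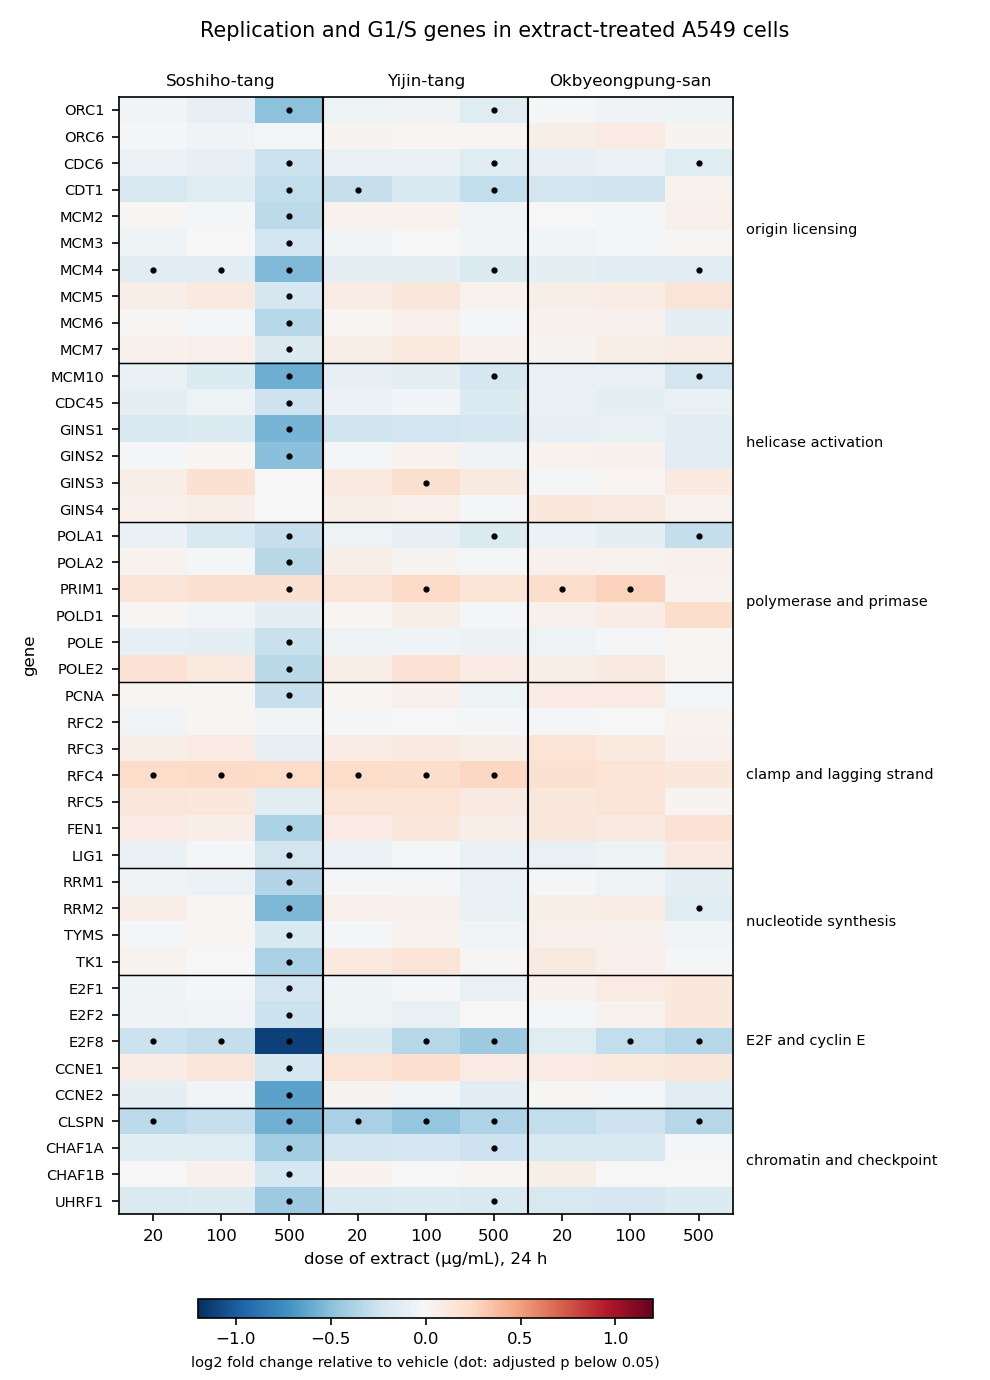
Log2 fold change relative to vehicle of the 42 genes (rows, grouped by role) for 3 extracts at 20, 100 and 500 µg/mL (columns), with a dot where the adjusted p was below 0.05. The column of Soshiho-tang at 500 µg/mL holds 33 lower and 2 higher calls, where 16.0% of all tested genes fell and 17.2% rose. The other columns hold 0 to 10 lower calls, where 3.96% to 7.76% of all tested genes fell.

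RNA levels of the 42 genes differed widely from gene to gene in cells kept without extract. In vehicle and per kilobase of the longest annotated transcript, PCNA was highest at 184 CPM per kb, followed by MCM7 at 102 and RRM2 at 83.0 CPM per kb. CCNE2 at 2.59, E2F2 at 3.61 and E2F8 at 5.53 CPM per kb were lowest. The least covered gene, CCNE2, still had at least 157 counts in each vehicle library. Of the 42 genes, 20 share exon sequence with another annotated gene, 6 of them on the same strand (POLA2, PRIM1, POLD1, FEN1, RRM2 and CHAF1B). How the counting treated strand is not given in the sources used here, so the counts of these 20 genes may include reads of the neighbour.

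Promoters were available from RefSeq (GRCh38.p14) for 37 of the 42 genes, each window running from 250 bases before to 50 bases after the annotated start. They were searched on both strands for 4 words of E2F sites, TTTCCCGC, TTTGGCGC, TTTCGCGC and TTTGCCGC, for TTTGAA, the word of the CHR element that many mitotic genes carry, and for CCAAT, the word bound by NF-Y. Some words overlap, since TTTGGCGCGAAA holds TTTGGCGC on one strand and TTTCGCGC on the other. An E2F word was found in 21 of the 37 promoters, 56.8%, against 20.7% of the 29 promoters of other replication genes, 9.52% of the 21 promoters of mitotic genes and 3.33% of all 27305 promoters. The set of all promoters was not limited to the genes tested here. TTTGAA was found in 2.7% of the promoters of the 42 genes, against 6.9% of the other replication, 66.7% of the mitotic and 15.4% of all promoters. CCAAT was found in 56.8% of them, against 51.7% of the other replication, 85.7% of the mitotic and 35.7% of all promoters. The promoters printed here are those of ORC1, MCM6, RRM2, TK1, CCNE1 and E2F2, the 2 members with the largest change at 500 against 20 µg/mL of Soshiho-tang in each of the licensing, nucleotide and E2F groups, taken among genes whose promoter could be shown, and capitals mark E2F words and CCAAT or its reverse ATTGG. ORC1 lies on the minus strand at chr1:52404374-52404673, MCM6 on the minus strand at chr2:135876394-135876693, RRM2 on the plus strand at chr2:10122489-10122788, TK1 on the minus strand at chr17:78187155-78187454, CCNE1 on the plus strand at chr19:29811741-29812040 and E2F2 on the minus strand at chr1:23531184-23531483.
ORC1: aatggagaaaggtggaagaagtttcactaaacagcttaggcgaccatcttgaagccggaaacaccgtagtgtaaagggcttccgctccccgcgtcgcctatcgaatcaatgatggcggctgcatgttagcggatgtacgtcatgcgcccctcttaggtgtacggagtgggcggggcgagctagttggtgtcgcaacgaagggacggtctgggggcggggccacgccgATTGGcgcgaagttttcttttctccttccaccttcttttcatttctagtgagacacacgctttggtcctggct
MCM6: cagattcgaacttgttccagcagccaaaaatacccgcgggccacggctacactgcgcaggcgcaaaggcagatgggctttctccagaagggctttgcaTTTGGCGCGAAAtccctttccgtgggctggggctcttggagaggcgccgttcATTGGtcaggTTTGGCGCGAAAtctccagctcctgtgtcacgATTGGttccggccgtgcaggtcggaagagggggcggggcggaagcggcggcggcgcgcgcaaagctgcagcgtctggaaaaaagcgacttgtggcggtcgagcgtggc
RRM2: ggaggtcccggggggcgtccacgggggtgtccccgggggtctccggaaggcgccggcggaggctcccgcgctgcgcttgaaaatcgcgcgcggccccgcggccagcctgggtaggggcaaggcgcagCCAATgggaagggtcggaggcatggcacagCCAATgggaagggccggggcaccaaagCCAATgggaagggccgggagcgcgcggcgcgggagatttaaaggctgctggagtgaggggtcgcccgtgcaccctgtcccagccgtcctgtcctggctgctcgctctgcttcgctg
TK1: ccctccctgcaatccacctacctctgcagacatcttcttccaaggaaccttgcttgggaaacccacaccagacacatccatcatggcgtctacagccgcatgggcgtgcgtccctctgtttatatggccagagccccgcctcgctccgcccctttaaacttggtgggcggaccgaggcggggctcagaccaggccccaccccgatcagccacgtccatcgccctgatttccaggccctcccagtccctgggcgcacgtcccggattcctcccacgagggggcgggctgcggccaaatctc
CCNE1: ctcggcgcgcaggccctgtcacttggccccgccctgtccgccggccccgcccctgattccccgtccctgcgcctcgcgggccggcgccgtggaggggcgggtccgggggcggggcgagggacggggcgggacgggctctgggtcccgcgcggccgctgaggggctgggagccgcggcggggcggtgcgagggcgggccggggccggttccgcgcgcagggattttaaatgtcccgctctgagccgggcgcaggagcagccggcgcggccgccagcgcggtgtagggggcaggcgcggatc
E2F2: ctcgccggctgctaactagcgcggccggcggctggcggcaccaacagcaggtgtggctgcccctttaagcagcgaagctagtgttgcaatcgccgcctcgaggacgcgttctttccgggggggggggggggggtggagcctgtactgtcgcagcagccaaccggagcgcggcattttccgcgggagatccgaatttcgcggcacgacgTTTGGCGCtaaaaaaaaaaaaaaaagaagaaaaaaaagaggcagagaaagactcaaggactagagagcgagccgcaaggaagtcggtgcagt
The MCM6 window held 4 E2F words in 2 overlapping pairs, which began 152, 148, 90 and 86 bases before the start, and E2F2 held 1 word, 42 bases before it. ORC1, RRM2, TK1 and CCNE1 held no E2F word of this set, RRM2 held CCAAT 3 times, and TK1 and CCNE1 held no CCAAT. A word is only a match of letters and not a measured binding site.

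**Figure D2:**
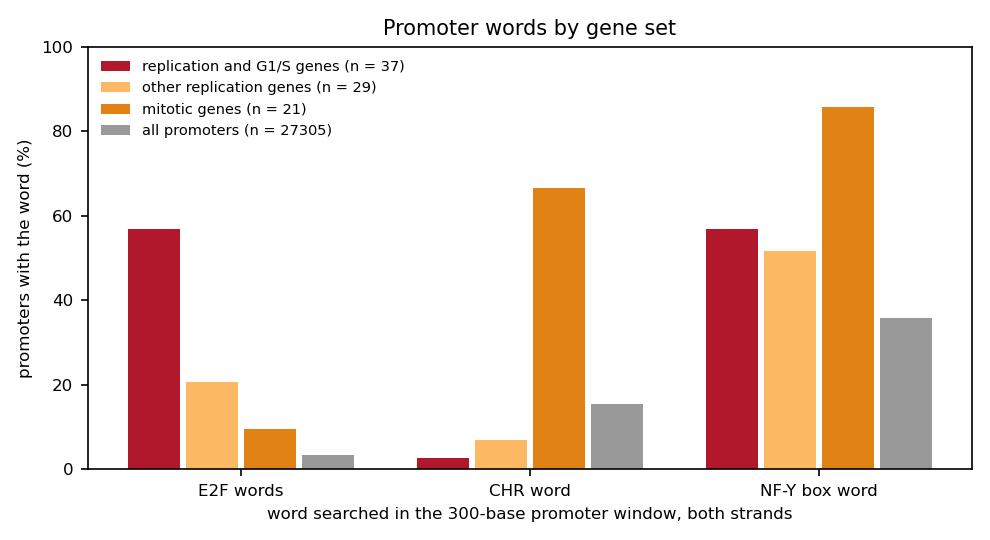
Share of RefSeq promoter windows of 300 bases that hold an E2F word, the CHR word or the NF-Y box word, for the replication and G1/S genes (n = 37), the other replication genes (n = 29), the mitotic genes (n = 21) and all promoters (n = 27305). The replication and G1/S genes stand highest for E2F words at 56.8%, with the other replication genes at 20.7%, and the mitotic genes for the CHR word at 66.7%.

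Shorter stretches from other members show the first E2F word of the window, in capitals, with 10 bases on each side. They are given on the strand of the gene in GRCh38.p14. A word on the opposite strand appears as its reverse complement, such as GCGGGAAA for TTTCCCGC. The E2F1 window held 2 E2F words, of which the first is shown. The stretches lie in the windows of GINS2 (chr16:85688968-85688995, minus strand), POLE2 (chr14:49688202-49688229, minus strand), POLA2 (chr11:65261899-65261926, plus strand), PCNA (chr20:5126664-5126691, minus strand) and E2F1 (chr20:33686401-33686428, minus strand). In the same order, these genes were at −0.48, −0.49, −0.37, −0.29 and −0.18 (log2, 500 against 20 µg/mL of Soshiho-tang). CDT1, CDC6, TYMS and UHRF1, at −0.11, −0.19, −0.16 and −0.27, also held an E2F word and are not printed.
GINS2: tctcgccgtgGCGGGAAAacggcggccg
POLE2: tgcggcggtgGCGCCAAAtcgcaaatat
POLA2: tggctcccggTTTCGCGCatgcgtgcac
PCNA: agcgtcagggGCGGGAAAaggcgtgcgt
E2F1: tggctctttcGCGGCAAAaaggatttgg
Of the 21 genes with an E2F word, 15 fell at 500 against 20 µg/mL of Soshiho-tang, with a median log2 fold change of −0.21 and a range of −0.49 to −0.07. Of the 16 genes without one, 10 fell, with a median of −0.27 and a range of −0.62 to 0.03. Genes that fell were thus found with and without the word, and no difference between these sets was tested.

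Among the 10 licensing genes, 8 fell at 500 against 20 µg/mL of Soshiho-tang and 9 fell against vehicle, with ORC6 called in neither. MCM4, a subunit of the replicative helicase, was at 199, 195 and 197 CPM in the 3 libraries at 500 µg/mL, against 259, 258 and 263 CPM at 20 µg/mL and 279.6, 290.2 and 285 CPM in vehicle. The 3 groups did not overlap, and the log2 fold change was −0.40 ± 0.04 (SE) against 20 µg/mL (adjusted p = 9.12e-08) and −0.53 ± 0.04 against vehicle (adjusted p = 6.76e-10). ORC1, the largest subunit of the origin recognition complex, was at 35.7, 31.0 and 31.7 CPM at 500 µg/mL, against 45.5, 45.2 and 45.1 CPM at 20 µg/mL and 45.4, 47.7 and 45.2 CPM in vehicle. Every library at 500 µg/mL was below the others, with log2 fold changes of −0.47 ± 0.05 against 20 µg/mL (adjusted p = 4.34e-07) and −0.49 ± 0.05 against vehicle (adjusted p = 1.62e-07). All 6 subunits of the MCM2 to MCM7 hexamer fell in both comparisons, from −0.18 (MCM3) to −0.40 (MCM4) against 20 µg/mL and from −0.16 (MCM7) to −0.53 (MCM4) against vehicle.

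The loading factors CDC6 and CDT1 changed less. CDC6 was at 98.7, 97.8 and 99.9 CPM at 500 µg/mL, against 110.4, 114 and 113 CPM at 20 µg/mL and 116, 122 and 116 CPM in vehicle, so the groups were close but did not overlap. Its log2 fold change was −0.19 ± 0.04 against 20 µg/mL (adjusted p = 0.00199) and −0.26 ± 0.04 against vehicle (adjusted p = 4.41e-05). CDT1 was at 38.5, 33.9 and 30.2 CPM at 500 µg/mL, against 38.9, 37.0 and 34.7 CPM at 20 µg/mL and 42.7, 41.8 and 42.1 CPM in vehicle. The libraries at 500 and 20 µg/mL overlapped (log2 fold change −0.11 ± 0.09, adjusted p = 0.431), while all at 500 µg/mL were below vehicle (−0.30 ± 0.09, adjusted p = 0.0112). Without replicate 3 of Soshiho-tang at 500 µg/mL, CDT1 no longer differed from vehicle at the threshold (adjusted p = 0.0846).

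Of the 6 genes of helicase activation, 3 fell against 20 µg/mL and 4 against vehicle. MCM10, which helps the loaded helicase to open, was at 54.1, 45.6 and 50.8 CPM at 500 µg/mL, against 73.3, 69.8 and 71.9 CPM at 20 µg/mL and 75.8, 75.3 and 75.7 CPM in vehicle. The 500 µg/mL libraries lay far below the rest, with log2 fold changes of −0.51 ± 0.05 and −0.59 ± 0.05 (adjusted p = 6.94e-08 and 6.41e-09 against 20 µg/mL and vehicle). GINS2, a subunit of the GINS complex, whose promoter word is shown above, was at 34.7, 35.3 and 33.7 CPM at 500 µg/mL, against 52.3, 48.2 and 44.0 CPM at 20 µg/mL and 49.7, 48.1 and 48.9 CPM in vehicle. It fell in both comparisons, with log2 fold changes of −0.48 ± 0.06 and −0.50 ± 0.07 (adjusted p = 6.20e-06 and 2.63e-06). GINS1 fell as well, with a log2 fold change of −0.38 ± 0.10 against 20 µg/mL. GINS3 and GINS4, of the same complex, were at −0.07 ± 0.06 and −0.07 ± 0.07 and were not called. CDC45 fell against vehicle (−0.25 ± 0.07) and was not called against 20 µg/mL (−0.13 ± 0.07).

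Of the 6 polymerase and primase genes, 4 fell in each comparison. POLE2, the second subunit of polymerase epsilon, was at 11.1, 11 and 13.5 CPM at 500 µg/mL, against 15.1, 17.1 and 17.7 CPM at 20 µg/mL and 15.4, 14.6 and 14.4 CPM in vehicle. All 3 libraries at 500 µg/mL were lowest, and the log2 fold change was −0.49 ± 0.09 against 20 µg/mL (adjusted p = 0.000480) and −0.32 ± 0.10 against vehicle (adjusted p = 0.0154). The call of POLE2 against vehicle was lost without replicate 1 or 2 of Soshiho-tang at 500 µg/mL (adjusted p = 0.0721 and 0.0808) and without vehicle replicate 1 (adjusted p = 0.0589). POLA2, a subunit of the polymerase alpha complex that starts new strands, was at 33.9, 35.2 and 32.9 CPM at 500 µg/mL, against 45.1, 44.6 and 41.9 CPM at 20 µg/mL and 41.4, 44.9 and 41.7 CPM in vehicle. The libraries at 500 µg/mL were all below those of the other groups, which overlapped each other, with log2 fold changes of −0.37 ± 0.06 and −0.33 ± 0.06 (adjusted p = 4.19e-05 and 0.000137). The primase subunit PRIM1, like RFC4 described here after its values were seen, was higher than in vehicle. It was at 40.0, 38.3 and 40.6 CPM at 500 µg/mL, against 39.2, 38.5 and 38.6 CPM at 20 µg/mL and 36.7, 35.1 and 33.1 CPM in vehicle, which is 0.03 ± 0.06 against 20 µg/mL (not called) and 0.18 ± 0.06 against vehicle (adjusted p = 0.0208). POLD1, the catalytic subunit of polymerase delta, was not called in either comparison.

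Of the 7 clamp and lagging strand genes, 4 fell against 20 µg/mL, and 3 fell and 1 rose against vehicle. FEN1, the nuclease that trims the flaps between Okazaki fragments, was at 84.2, 78.8 and 74.6 CPM at 500 µg/mL, against 121, 109 and 101 CPM at 20 µg/mL and 98.5, 100.3 and 109.5 CPM in vehicle. The lowest library at 20 µg/mL was still above the highest at 500 µg/mL, with log2 fold changes of −0.48 ± 0.07 and −0.38 ± 0.07 (adjusted p = 1.22e-05 and 0.000158). PCNA, the sliding clamp, was at 216, 202 and 200.1 CPM at 500 µg/mL, against 265, 254 and 237 CPM at 20 µg/mL and 253, 244 and 251 CPM in vehicle. It fell by less, with log2 fold changes of −0.29 ± 0.05 and −0.28 ± 0.05 (adjusted p = 0.000235 and 0.000278). Of the clamp loader subunits, RFC5 was at −0.27 ± 0.06 and RFC3 at −0.18 ± 0.06 against 20 µg/mL, both called, and RFC2 and RFC4 were at −0.00 ± 0.07 and 0.00 ± 0.06, not called. RFC4 was 0.22 ± 0.06 higher than in vehicle (adjusted p = 0.00555). Both genes that rose against vehicle share exon sequence with a neighbour, RFC4 with EIF4A2 (opposite strand) and PRIM1 with NACA (same strand) among others. The DNA ligase LIG1, which seals the nicks, fell against vehicle (−0.22 ± 0.06) and was not called against 20 µg/mL (−0.14 ± 0.06).

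Of the 4 nucleotide genes, 3 fell against 20 µg/mL and 4 against vehicle. RRM2, the regulated small subunit of ribonucleotide reductase, was at 211, 199.6 and 216 CPM at 500 µg/mL, against 321, 316 and 327 CPM at 20 µg/mL and 309, 311 and 295 CPM in vehicle. Its log2 fold change of −0.62 ± 0.04 against 20 µg/mL (adjusted p = 2.73e-10) and −0.54 ± 0.05 against vehicle (adjusted p = 2.11e-09) came with no overlap between groups, and RNA dropped by 34.9% relative to 20 µg/mL. RRM1, the large subunit, fell with a log2 fold change of −0.31 ± 0.04 against 20 µg/mL. TK1, the thymidine kinase of the salvage route, was at 112, 102 and 100 CPM at 500 µg/mL, against 148, 152 and 123 CPM at 20 µg/mL and 135, 139 and 137 CPM in vehicle. It was lowest in the 3 libraries at 500 µg/mL, with log2 fold changes of −0.43 ± 0.10 and −0.39 ± 0.10 (adjusted p = 0.00206 and 0.00333). TYMS, thymidylate synthase, was at 112, 107 and 98.8 CPM at 500 µg/mL, against 126, 117 and 112 CPM at 20 µg/mL and 123, 117 and 119.5 CPM in vehicle. The highest library at 500 µg/mL and the lowest at 20 µg/mL were both at 112 CPM, and the log2 fold change was −0.16 ± 0.06 against 20 µg/mL (adjusted p = 0.0654, not called) and −0.18 ± 0.06 against vehicle (adjusted p = 0.0273). The TYMS call against vehicle was lost without vehicle replicate 1 or 3 or without replicate 2 or 3 of Soshiho-tang at 500 µg/mL, with adjusted p up to 0.15.

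Of the 5 E2F and cyclin E genes, 3 fell against 20 µg/mL and 5 against vehicle. E2F8, a repressor of the E2F family that is itself transcribed in S phase, had the largest change of all 42 genes in both comparisons. It was at 9.26, 8.42 and 9.22 CPM at 500 µg/mL, against 15.7, 16.5 and 16.4 CPM at 20 µg/mL and 20.0, 18.7 and 19.7 CPM in vehicle. The 3 groups were fully apart, with log2 fold changes of −0.85 ± 0.08 against 20 µg/mL (adjusted p = 4.58e-08) and −1.12 ± 0.08 against vehicle (adjusted p = 5.13e-10). RNA of E2F8 dropped by 44.6% relative to 20 µg/mL. The activators moved less. E2F1 was at 43.2, 41.7 and 37.3 CPM at 500 µg/mL, against 51.1, 45 and 42.4 CPM at 20 µg/mL and 47.0, 49.3 and 47.1 CPM in vehicle. It overlapped between the doses (−0.18 ± 0.08, adjusted p = 0.145) and lay below vehicle (−0.23 ± 0.09, adjusted p = 0.0421), a call lost without any 1 of the 3 vehicle libraries or without replicate 2 or 3 of the 500 µg/mL group (adjusted p up to 0.186).

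The cyclin E genes encode the partners of CDK2 at the G1/S boundary. CCNE2 was at 5.10, 5.91 and 5.56 CPM at 500 µg/mL, against 7.53, 8.41 and 8.01 CPM at 20 µg/mL and 8.23, 8.65 and 8.99 CPM in vehicle. Its libraries at 500 µg/mL were all lowest, with log2 fold changes of −0.53 ± 0.11 and −0.64 ± 0.12 (adjusted p = 0.00133 and 0.000168). CCNE1 was at 20.5, 19.8 and 23.8 CPM at 500 µg/mL, against 24.7, 27.2 and 26.8 CPM at 20 µg/mL and 24.3, 26.5 and 23.0 CPM in vehicle. Replicate 3 at 500 µg/mL lay above the lowest vehicle library, and the log2 fold change was −0.29 ± 0.07 against 20 µg/mL (adjusted p = 0.00455) and −0.20 ± 0.07 against vehicle (adjusted p = 0.0415). The CCNE1 call against vehicle was lost without vehicle replicate 1 or 2 or without replicate 1 or 2 of Soshiho-tang at 500 µg/mL (adjusted p up to 0.206).

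All 4 genes of chromatin assembly and the checkpoint fell in both comparisons. UHRF1, which brings maintenance methylation to new DNA, was at 71.7, 68.9 and 65.1 CPM at 500 µg/mL, against 86.5, 81.2 and 80.4 CPM at 20 µg/mL and 92.8, 92.9 and 93.2 CPM in vehicle. The groups were apart, with log2 fold changes of −0.27 ± 0.06 and −0.44 ± 0.06 (adjusted p = 0.00219 and 5.93e-06). CHAF1A, a subunit of the histone chaperone CAF-1, was at 45.7, 47.3 and 42.7 CPM at 500 µg/mL, against 53.4, 54.8 and 55.3 CPM at 20 µg/mL and 57.9, 60.6 and 62.5 CPM in vehicle. It fell with log2 fold changes of −0.27 ± 0.08 and −0.42 ± 0.08 (adjusted p = 0.0167 and 0.000295), and its call against 20 µg/mL was lost without replicate 2 or 3 of that dose or replicate 3 at 500 µg/mL (adjusted p up to 0.0829). CHAF1B, another CAF-1 subunit, had a log2 fold change of −0.21 ± 0.05 against 20 µg/mL, and CLSPN, which carries the checkpoint signal from stalled forks, one of −0.27 ± 0.09.

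**Figure D3:**
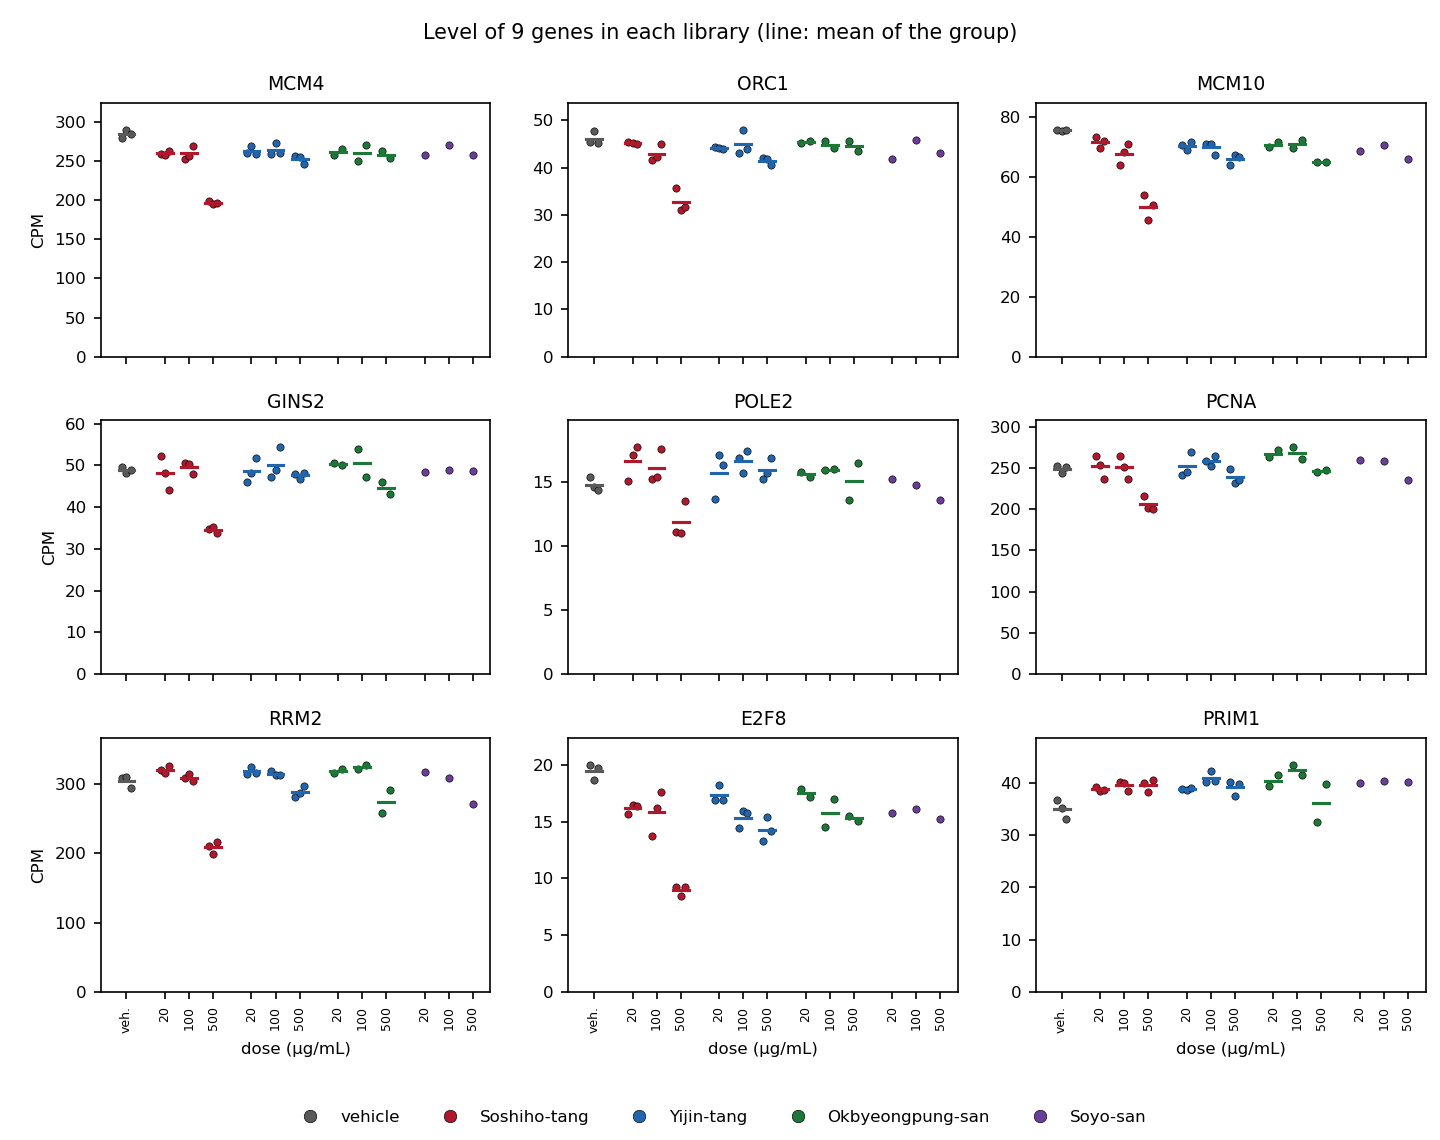
Level (CPM) of 9 genes in each of 30 libraries, with vehicle at the left and each extract in rising dose, and a line at the group mean. In 8 of the panels the 3 libraries of Soshiho-tang at 500 µg/mL are the lowest, as for RRM2 at 199.6 to 216 CPM. PRIM1 is higher there (38.3 to 40.6 CPM) than in vehicle (33.1 to 36.7 CPM), as it also is at 20 µg/mL of Soshiho-tang (38.5 to 39.2 CPM).

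Subunits of the same complex moved unequally at 500 against 20 µg/mL of Soshiho-tang. ORC1 had a log2 fold change of −0.47, while ORC2, ORC3, ORC4 and ORC5 were between −0.03 and 0.04 and ORC6 at 0.01, none of them called. Within the GINS complex the values ran from −0.48 (GINS2) to −0.07, within polymerase epsilon from −0.49 (POLE2) over −0.17 (POLE) to −0.01 (POLE4), and between the ribonucleotide reductase subunits from −0.62 (RRM2) to −0.31 (RRM1). Of the MCM hexamer, by contrast, all subunits were called. Differences between subunits were not tested. Counted over the comparisons of Soshiho-tang at 500 µg/mL with vehicle, with 20 µg/mL and with Yijin-tang and Okbyeongpung-san at 500 µg/mL, which share those 3 libraries, 23 of the 42 genes fell in all 4, where 3.13% of all tested genes did. The 6 genes that fell in none were GINS3, GINS4, ORC6, PRIM1, RFC2 and RFC4, where 78.4% of all tested genes fell in none.

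Lower doses of Soshiho-tang changed few of these genes. The summed level was 3788 ± 92.8 CPM at 20 µg/mL, 3773 ± 88.2 CPM at 100 µg/mL and 3096 ± 98.1 CPM at 500 µg/mL (SD, n = 3 each), so the drop lay between 100 and 500 µg/mL. At 100 against 20 µg/mL, 0 of the 42 genes were called, 0 passed an unadjusted p below 0.05 and DESeq2 called 0, where 0 of all tested genes were called in either direction (0.00%). Against vehicle, 3 genes fell at 20 µg/mL and 2 at 100 µg/mL, where 3.96% and 5.19% of all tested genes fell, and 1 gene rose at each, where 4.06% and 5.57% rose. These were E2F8 (−0.26 ± 0.08 and −0.29 ± 0.08), MCM4 (−0.13 ± 0.04 at both doses), CLSPN at 20 µg/mL and RFC4, which rose. Without any 1 of the 3 vehicle libraries the lower genes at 20 µg/mL were 0, and those at 100 µg/mL were 0 without vehicle replicate 1 or 3 and 1 without vehicle replicate 2.

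Yijin-tang left the replication genes close to their levels at low dose. At 500 against 20 µg/mL, 0 of 42 genes were called by edgeR or by DESeq2, 2 were lower at an unadjusted p below 0.05, and 0.418% of all tested genes fell and 0.286% rose. The median log2 fold change was −0.03, with 35 of 42 values negative. E2F8 had the largest change (−0.28 ± 0.08, adjusted p = 0.139), followed by CCNE2 and RRM2 (−0.17 ± 0.11 and −0.14 ± 0.04). Against vehicle 2 genes fell at 20 µg/mL, 2 at 100 µg/mL and 10 at 500 µg/mL, where 5.16%, 6.82% and 7.56% of all tested genes fell. The 10 became 4 or 5 without any 1 of the vehicle libraries or without replicate 1 or 3 at 500 µg/mL. At 20 and at 100 µg/mL the lower genes were 4.76% of the 42, below the share of all tested genes. Called at more than 1 dose were CLSPN, E2F8 (100 and 500 µg/mL) and CDT1 (20 and 500 µg/mL), in comparisons that share the vehicle libraries. E2F8 was at 13.3, 15.4 and 14.2 CPM at 500 µg/mL of Yijin-tang, against 20.0, 18.7 and 19.7 CPM in vehicle (−0.44 ± 0.08, adjusted p = 0.000753), and CLSPN was lower than vehicle at all 3 doses. Higher calls against vehicle were 1, 3 and 1 at 20, 100 and 500 µg/mL, where 5.09%, 7.89% and 8.12% of all tested genes rose. They were RFC4 at every dose, joined by PRIM1 and GINS3 at 100 µg/mL. At 100 against 20 µg/mL edgeR and DESeq2 called 0 of the 42 genes, 1 was lower at an unadjusted p below 0.05, and 0.00573% of all tested genes fell and 0.0172% rose.

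Set side by side at 500 µg/mL, Soshiho-tang libraries were lower than Yijin-tang libraries. There 25 of 42 genes were lower and 0 higher, where 6.29% of all tested genes were lower and 6.31% higher, with a median log2 fold change of −0.22. E2F8 was at 9.26, 8.42 and 9.22 CPM with Soshiho-tang, against 13.3, 15.4 and 14.2 CPM with Yijin-tang (−0.67 ± 0.08, adjusted p = 3.84e-06). RRM2 was at 211, 199.6 and 216 CPM with Soshiho-tang, against 281, 288 and 297 CPM with Yijin-tang (−0.46 ± 0.04, adjusted p = 7.39e-08). Neither gene overlapped between the extracts. CDC6, CDT1, TYMS, E2F1 and CHAF1A were not called in that comparison, with log2 fold changes from −0.17 (CHAF1A) to −0.00 (CDT1).

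The dose effects themselves were also compared. The log2 fold change of 500 against 20 µg/mL with Soshiho-tang, minus that with Yijin-tang, was negative beyond the threshold for 11 genes and positive for 0, where 1.76% and 2.27% of all tested genes passed. The 11 genes were E2F8 (−0.57 ± 0.11, adjusted p = 0.00303), POLE2, RRM2 (−0.48 ± 0.06, adjusted p = 2.46e-05), GINS2, FEN1, MCM10, ORC1, MCM4, MCM6, POLA2 and RRM1 (−0.24 ± 0.06, adjusted p = 0.0141). At least 1 gene of each role group other than chromatin and checkpoint was among them. For the counts of 0 higher genes here and against Yijin-tang at 500 µg/mL, 0 genes were higher at an unadjusted p below 0.05 and 0 with DESeq2. The remaining 31 genes had no difference past the threshold, which does not show that the extracts acted alike on them.

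**Figure D4:**
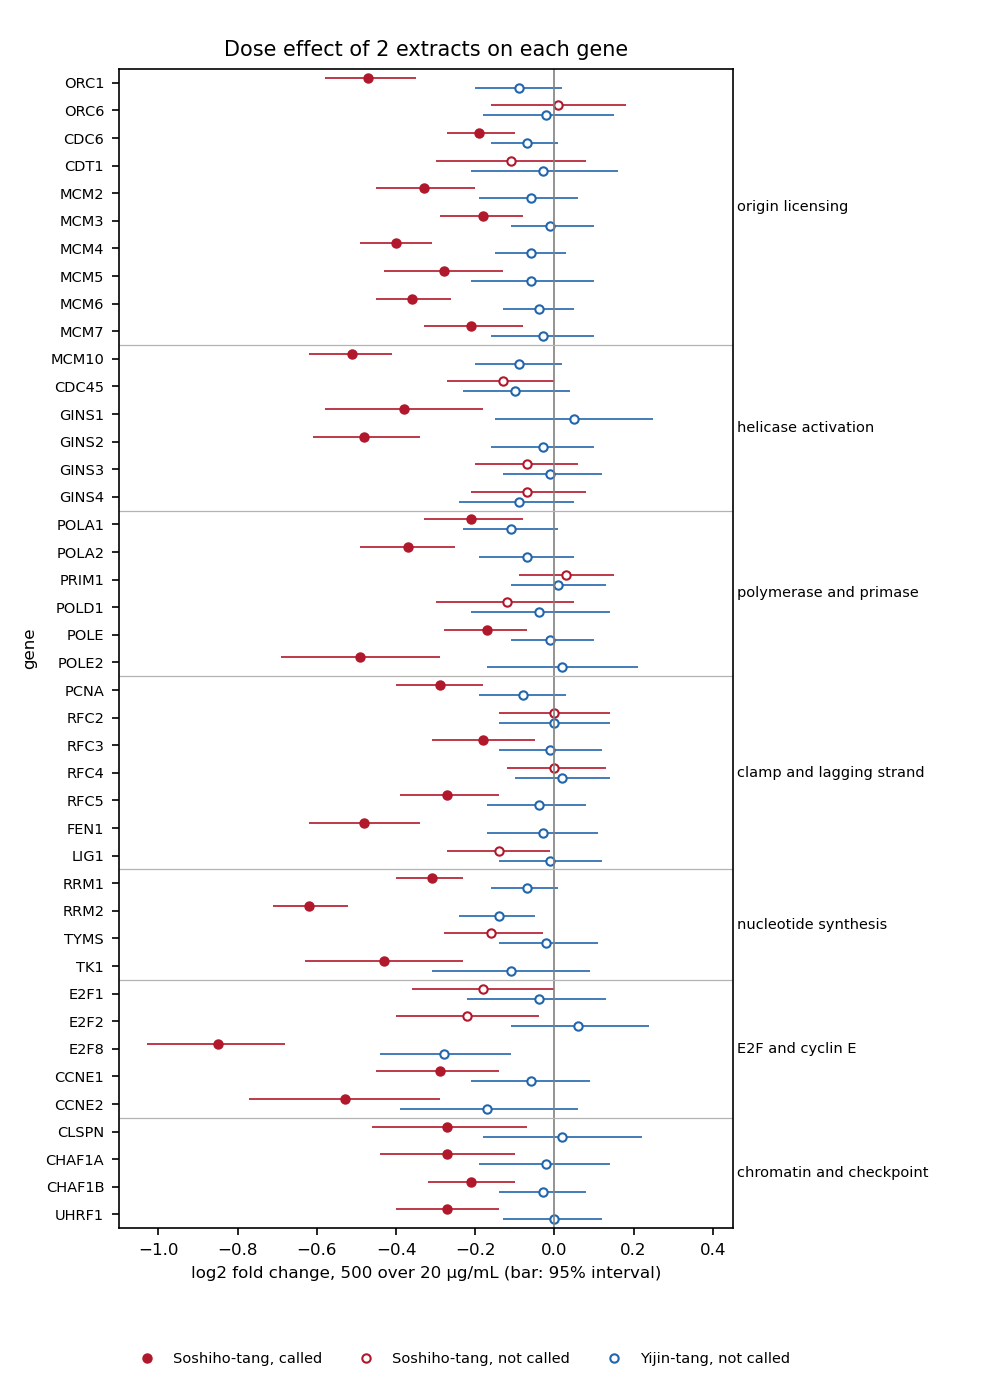
Log2 fold change of 500 over 20 µg/mL (x axis, bars are 95% intervals) for each of the 42 genes, with Soshiho-tang above Yijin-tang in each row and filled points where the adjusted p was below 0.05. Soshiho-tang values run from −0.85 (E2F8) to 0.03 (PRIM1) with 29 filled points, and no Yijin-tang point is filled.

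Okbyeongpung-san was tested on 2 libraries per dose, 1 in each titled batch. At 500 against 20 µg/mL, 1 of 42 genes fell (RRM2), where 0.613% of all tested genes fell and 0.979% rose. RRM2 was at 258 and 292 CPM at 500 µg/mL, against 317 and 322 CPM at 20 µg/mL (replicates 2 and 3 in each), with a log2 fold change of −0.22 ± 0.05 (adjusted p = 0.0416). The call was lost without replicate 2 at 500 µg/mL or either replicate at 20 µg/mL, and without replicate 3 at 500 µg/mL 6 genes were lower. Within batch E (replicate 2) the ratio of 500 to 20 µg/mL was −0.30 for RRM2 on the log2 scale, and within batch D (replicate 3) it was −0.14. Over the 42 genes the median ratio was −0.01 with 21 negative values in batch E and −0.05 with 29 negative values in batch D. CHAF1A showed how far these libraries lay apart, at 69.5 CPM in replicate 2 and 49.2 CPM in replicate 3 at 500 µg/mL. Against vehicle 0 genes fell at 20 µg/mL (6 at an unadjusted p below 0.05 and 3 with DESeq2), 1 at 100 µg/mL and 7 at 500 µg/mL, where 4.95%, 4.74% and 7.76% of all tested genes fell. At 500 µg/mL 0 genes rose (2 at an unadjusted p below 0.05 and 0 with DESeq2), where 7.19% of all tested genes rose. The 7 were CDC6, MCM4, MCM10, POLA1, RRM2, E2F8 and CLSPN, and the count was 1 without replicate 2 at 500 µg/mL and 3 without any 1 of the vehicle libraries. PRIM1 rose at 20 and 100 µg/mL, the only higher call at these doses, where 5.21% and 4.75% of all tested genes rose. At 100 against 20 µg/mL 0 of the 42 genes were called by edgeR or DESeq2 and 0 passed an unadjusted p below 0.05, where 0.00% of all tested genes were called.

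Between the extracts at 500 µg/mL, 29 of 42 genes were lower with Soshiho-tang than with Okbyeongpung-san and 0 higher, where 9.55% and 9.14% of all tested genes were (1 was higher at an unadjusted p below 0.05 and 0 with DESeq2). The median log2 fold change was −0.31, and FEN1 was at 84.2, 78.8 and 74.6 CPM with Soshiho-tang, against 121 and 109 CPM with Okbyeongpung-san (−0.54 ± 0.07, adjusted p = 1.18e-05). In a fit of only these 5 libraries 8 genes were lower, and without Okbyeongpung-san replicate 2 in the full fit 18 were. Between Yijin-tang and Okbyeongpung-san at 500 µg/mL, 0 of 42 genes were called in either direction, 5 were lower at an unadjusted p below 0.05 and DESeq2 called 1, where 1.45% and 0.853% of all tested genes were lower and higher.

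Soyo-san had 1 library per dose, so no test was made. At 500 over 20 µg/mL, 0 of the 42 genes differed by 1.5 times or more, where 9.99% of all tested genes did. Ratios ran from −0.49 (CCNE2) to 0.19 (CCNE1) on the log2 scale with a median of −0.02. At 100 over 20 µg/mL the count was also 0, where 9.11% of all tested genes passed.

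Other genes of replication and the cell cycle were read from lists of their own. Of 36 further replication genes, 16 fell and 0 rose at 500 against 20 µg/mL of Soshiho-tang, with a median log2 fold change of −0.14. Of all tested genes, 10.2% fell and 10.3% rose in that comparison. Among the larger changes were those of ASF1B, a histone chaperone (−0.65 ± 0.06), TICRR, which helps to fire origins (−0.48 ± 0.06), and TOPBP1, a scaffold of origin firing and the checkpoint (−0.35 ± 0.07). Of 26 genes that control G1/S, 23 were tested, 8 fell and 2 rose, against the same 10.2% and 10.3% of all tested genes. CDKN2C, an inhibitor of CDK4 and CDK6, and CCND3, cyclin D3, fell with log2 fold changes of −1.07 ± 0.07 and −1.01 ± 0.06. E2F7, the repressor closest to E2F8, fell with −0.55 ± 0.09, and CDKN2D, another inhibitor of CDK4 and CDK6, fell as well. The genes that rose, named after their values were seen, were CDKN1A, which encodes the inhibitor p21 (0.41 ± 0.07, adjusted p = 0.000154), and MYC, a growth-promoting transcription factor (0.30 ± 0.07, adjusted p = 0.00172). With Yijin-tang at 500 against 20 µg/mL, 2 of the 23 fell and 0 rose, where 0.418% of all tested genes fell and 0.286% rose. There CCND3 was at 153, 145 and 144 CPM against 168, 178 and 198 CPM. CDKN2C was at 15.0, 15.1 and 16.5 CPM against 18.6, 18.9 and 21.1 CPM.

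All 25 listed genes of mitosis fell at 500 against 20 µg/mL of Soshiho-tang, with a median log2 fold change of −0.37, and 24 of 25 fell against vehicle with a median of −0.48. Of all tested genes, 10.2% fell against 20 µg/mL and 16.0% against vehicle. KIF20A, a mitotic kinesin (−0.80 ± 0.08), and MKI67, the proliferation marker Ki-67 (−0.75 ± 0.09), changed most. The 25 genes summed to 3594 ± 119.8 CPM at 500 µg/mL of Soshiho-tang, against 4874 ± 78.9 CPM at 20 µg/mL and 5267 ± 51.5 CPM in vehicle (SD, n = 3 each). With Yijin-tang 0 of the 25 and with Okbyeongpung-san 1 of the 25 fell at 500 against 20 µg/mL, where 0.418% and 0.613% of all tested genes fell. Against vehicle 9 and 16 of the 25 fell with these extracts at 500 µg/mL, where 10 and 7 of the 42 replication genes did. Of all tested genes, 7.56% and 7.76% fell in these comparisons with vehicle. Whether the changes of the 2 lists are linked was not tested.

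**Figure D5:**
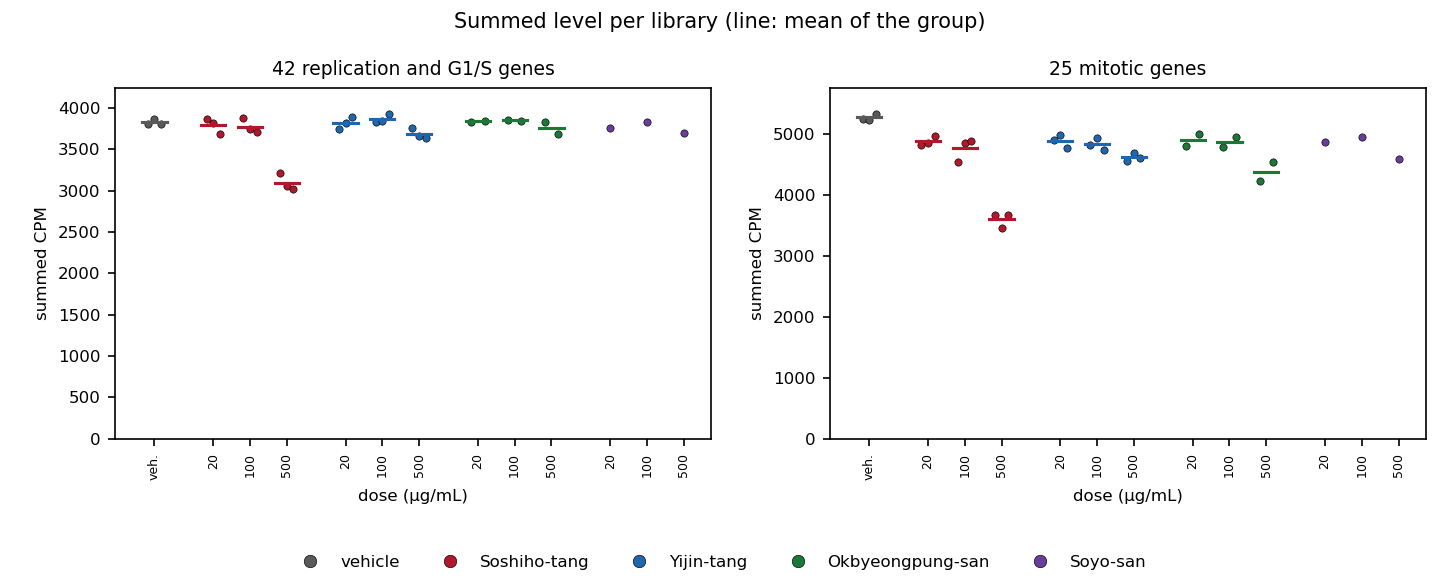
Summed level (CPM) of the 42 replication and G1/S genes and of 25 mitotic genes in each library, with vehicle at the left, each extract in rising dose and a line at the group mean. The replication genes stand at 3025 to 3208 CPM in the libraries of Soshiho-tang at 500 µg/mL, and the mitotic genes at 3456 to 3665 CPM.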

How the data were processed

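Bulk RNA-seq of 30 A549 libraries was read from 1 table of expected counts per gene, deposited by the authors. Per the submitters' processing notes, reads were handled with STAR 2.7.3a, RSEM 1.3.3, Trim Galore 0.6.5 and FastQC 0.11.9, and the build was hg38. The annotation release, the strand setting and the order of these steps are not given in the sources used here. A further 30 columns of the table were empty and left out. Expected counts were rounded to whole numbers. Genes were kept by edgeR's filterByExpr (17459 genes), totals were adjusted by TMM, and the 27 libraries of vehicle, Soshiho-tang, Yijin-tang and Okbyeongpung-san were fitted together in edgeR 4.0.16 (glmQLFit and glmQLFTest, limma 3.58.1, R 4.3.3), with Benjamini-Hochberg adjustment over all tested genes and a threshold of 0.05. The common dispersion was 0.00474, a biological coefficient of variation of 6.89%. The 3 Soyo-san libraries had no replicate and were described by ratios only. CPM divide counts by TMM-adjusted totals, and per kilobase values divide them by the longest annotated transcript. The fit was also run on simulated libraries, drawn independently with the spread that the fit itself had estimated. That run cannot speak to technical replicates or batches, and no result here rests on it. Members, roles and lists were chosen with earlier results of these data known. Library values are given for the 2 members of each role with the largest change at 500 against 20 µg/mL of Soshiho-tang, and for CDC6, CDT1, PCNA, RRM2, TYMS, E2F1, CCNE1 and CCNE2. The 28-base stretches were chosen among members with an E2F word, and those of CDT1, CDC6, TYMS and UHRF1 were not printed. Alternatives were DESeq2 1.42.0, DESeq2 size factors, no filter, a length and GC offset, no mitochondrial genes, only the compared groups, a replicate block, no batch D libraries, and each library left out in turn. Same-numbered libraries were checked for pairing by the correlation of their deviations from group means, which ran from −0.15 to 0.3 over the comparisons. Only for Yijin-tang at 100 against 20 µg/mL were all 3 correlations above 0.1 (0.12 to 0.3), and the labels do not say that a number marks a shared day or culture.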

Additional observations from a re-analysis of the deposited data

Results flagged for a closer look

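For 11 of the 42 genes the dose effect of 500 against 20 µg/mL differed between Soshiho-tang and Yijin-tang, by the test of the difference itself in edgeR's quasi-likelihood fit. The difference of the log2 fold changes (Soshiho-tang minus Yijin-tang) was −0.57 ± 0.11 (SE) for E2F8, −0.51 ± 0.13 for POLE2, −0.48 ± 0.06 for RRM2, −0.45 ± 0.09 for GINS2 and −0.45 ± 0.10 for FEN1. It was −0.42 ± 0.07 for MCM10, −0.37 ± 0.07 for ORC1, −0.34 ± 0.06 for MCM4, −0.32 ± 0.06 for MCM6, −0.30 ± 0.08 for POLA2 and −0.24 ± 0.06 for RRM1. The adjusted p-values ran from 2.46e-05 (RRM2) to 0.0343 (POLA2), and all 11 differences were negative. Of all tested genes, 1.76% passed with a negative and 2.27% with a positive difference.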

How the results depend on the processing

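Counts of genes lower at 500 µg/mL of Soshiho-tang were 29 to 34 against vehicle over 8 other settings (26 to 31 with 1 library left out), 28 to 32 against 20 µg/mL (23 to 29) and 25 to 27 against Yijin-tang (21 to 25), and those of the difference in dose effects were 9 to 12 with 1 library left out and 19 with the length and GC offset. Against Okbyeongpung-san at 500 µg/mL the count was 8 with only the compared groups and 18 to 29 with 1 library left out, the lowest without its replicate 2. The remaining counts moved as follows, against vehicle unless another group is named. Without the filter on low counts they were 1 for Soshiho-tang 20, 4 for Yijin-tang 500, 3, 0 and 1 for Okbyeongpung-san 500, 100 and 20, 0 for Okbyeongpung-san 500 against 20, and 1 for Yijin-tang 500 against Okbyeongpung-san 500. With a replicate block they were 6 for Soshiho-tang 100, 4 for Yijin-tang 20, 2 for Okbyeongpung-san 100 and 1 for Yijin-tang 500 against Okbyeongpung-san 500. The block gave 31 at 500 against 20 µg/mL of Soshiho-tang, adding TYMS (adjusted p = 0.036), and 0 for Yijin-tang 100 against 20, and 13 of 24 treated libraries correlated best with their own number. With the length and GC offset they were 4 for Soshiho-tang 100, 5 for Yijin-tang 20, 4 for Okbyeongpung-san 500, 2 for Yijin-tang 500 against 20 and 2 for Okbyeongpung-san 500 against 20. Without batch D libraries they were 4 for Okbyeongpung-san 500, 2 for Okbyeongpung-san 500 against 20 and 7 for Yijin-tang 500 against Okbyeongpung-san 500. With only the compared groups they were 7 for Soshiho-tang 20, 4 for Yijin-tang 100, 4 for Yijin-tang 20, 1, 7 and 5 for Okbyeongpung-san 500, 100 and 20, and 0 for Okbyeongpung-san 500 against 20. DESeq2 gave 6 for Soshiho-tang 100, 5 for Yijin-tang 20, 3 for Okbyeongpung-san 100, 3 for Okbyeongpung-san 20, 2 for Okbyeongpung-san 500 against 20 and 1 for Yijin-tang 500 against Okbyeongpung-san 500, and with its size factors alone Soshiho-tang 100 had 4. Leaving out 1 library gave 0 to 4 for Soshiho-tang 100, 0 to 1 for Soshiho-tang 20, 4 to 7 for Yijin-tang 500, 2 to 4 for Yijin-tang 100, 0 to 3 for Yijin-tang 20, 1 to 7 for Okbyeongpung-san 500, 0 to 1 for Okbyeongpung-san 100, 0 to 6 for Okbyeongpung-san 500 against 20, and 0 to 7 for Yijin-tang 500 against Okbyeongpung-san 500, the last without Okbyeongpung-san replicate 3. CHAF1A at 500 µg/mL of Okbyeongpung-san against vehicle turned to 0.22 (adjusted p = 0.0331) without batch D libraries and ran from −0.29 without replicate 2 to 0.20 without replicate 3. Single-gene values were followed for the members given library by library, in the comparisons that involve 500 µg/mL. Of these values 1302 of 1368 counted as unchanged over the settings, and 845 of 931 over left-out libraries. Unchanged means the same side of the threshold, with the same direction required only where either fit called the gene. The causes of these changes were not tested. Vehicle and treated libraries differed in depth, and this cannot be told apart from treatment in comparisons with vehicle.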
